A study of Mus musculus with 33 samples.

Results

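The 10 immediate early genes Fos, Fosb, Jun, Junb, Egr1, Atf3, Ier2, Ier3, Myc and Dusp1 were followed by name among the 22970 genes of a 3′-end RNA sequencing table of mouse cardiac myocytes. All 10 were in the table and 9 passed the filter on low values, which kept 10858 genes. Myc was the exception. Wild-type (WT) hearts and hearts lacking Rbfox2 (knockout, KO) supplied the myocytes, in both cases from Black Swiss mice aged 9 weeks. The product of Rbfox2 binds pre-mRNA and steers the choice of exons. The table holds 3 numbered libraries per genotype. The labels do not say how Rbfox2 was deleted, in which cells, or whether each library came from its own animal, and they give no batch and no isolation time for any library.

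Immediate early genes are switched on within minutes of a stimulus, before any new protein is made. MAP kinases act on factors that already sit at their promoters, such as SRF with its ELK partners and CREB, and the mRNAs are then removed quickly because their ends carry AU-rich elements. In the heart they respond to stretch, hormones, ischaemia and injury, and enzymatic dissociation of tissue is itself a known inducer. The comparison below asks how far these genes spread between libraries of the same genotype, set against the difference between genotypes.

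Promoter sequence was shown for the members because WT library 3 was the highest WT library for 8 of the 9 tested (below). A link between promoter sequence and that order was not tested. The 200 bases before the gene start were taken from RefSeq (GRCm38.p6), which held a promoter for 7 of the 10 members, and were searched on both strands for TGACG, the core of the cAMP response element bound by CREB and ATF proteins. It was in 5 of the 7, against 15.7% of 32544 promoters of the same length. The sequences lie at chr12:85473690-85473889 (+ strand), chr7:19310046-19310245 (- strand), chr8:84978749-84978948 (- strand), chr1:191183334-191183533 (- strand) and chr17:26508473-26508672 (- strand). They are written 5′ to 3′ on the strand of the gene and end at the base before its start. Capitals mark TGACG or, on the other strand, CGTCA.
Fos: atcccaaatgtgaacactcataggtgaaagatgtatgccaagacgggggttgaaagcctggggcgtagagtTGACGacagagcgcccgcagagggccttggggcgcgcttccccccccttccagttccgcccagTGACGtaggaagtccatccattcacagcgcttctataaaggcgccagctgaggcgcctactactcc
Fosb: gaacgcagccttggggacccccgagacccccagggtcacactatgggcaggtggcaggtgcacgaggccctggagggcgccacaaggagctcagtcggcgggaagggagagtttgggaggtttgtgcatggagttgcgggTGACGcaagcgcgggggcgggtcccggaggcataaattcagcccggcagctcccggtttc
Junb: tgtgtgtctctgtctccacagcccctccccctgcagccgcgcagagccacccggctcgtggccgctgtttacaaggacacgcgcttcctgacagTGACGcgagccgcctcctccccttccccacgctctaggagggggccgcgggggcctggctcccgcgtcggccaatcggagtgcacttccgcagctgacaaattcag
Atf3: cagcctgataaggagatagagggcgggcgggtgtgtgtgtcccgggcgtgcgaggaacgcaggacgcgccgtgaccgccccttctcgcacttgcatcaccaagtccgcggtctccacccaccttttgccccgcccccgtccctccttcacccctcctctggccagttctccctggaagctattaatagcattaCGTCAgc
Dusp1: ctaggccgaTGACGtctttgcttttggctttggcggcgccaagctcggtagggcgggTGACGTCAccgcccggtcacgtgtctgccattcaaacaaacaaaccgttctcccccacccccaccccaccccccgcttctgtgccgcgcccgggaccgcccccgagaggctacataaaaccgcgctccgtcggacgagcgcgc

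Fos held the core 129 and 66 bases before its start, Fosb at 60, Junb at 106 and Atf3 at 7. Dusp1 held it at 191, 143 and 140, the last pair being the strands of the complete palindrome TGACGTCA, which overlap and which 1.48% of all promoters held. The windows of Jun and Ier3 held no match to these letters. GGGCGG, the GC box bound by SP1, was in 6 of the 7 windows, all but that of Junb, and in 31.3% of all promoters. TATAAA was in that of Fos alone and in 9.89% of all promoters. The CArG box, the motif of SRF, was in none of the 7 windows and in 1.19% of all promoters. Egr1, Ier2 and Myc had no promoter entry and were not searched, and neither were bases further upstream of any member. The result therefore does not show that the members lack SRF sites. A match to any of these motifs is a description of the letters and was not tied to binding in these cells.

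The values are reads scaled by the authors to 10000000 per library (RP10M). Reads recovered from the scaling numbered 4007538 to 9563483 per library, with the most in WT library 3 and the fewest in KO library 1. Rbfox2 stood at 322.8, 296.7 and 214.4 RP10M in WT libraries 1, 2 and 3 and at 117.3, 81.7 and 66.4 in the KO libraries (log2 change -1.66, adjusted p = 0.0233 by limma). Leaving out either of WT libraries 1 and 2 or of KO libraries 2 and 3 raised that p above the threshold, in the case of KO library 2 to 0.134. The 10 myocyte markers, among them Myh6, Tnnt2 and Ryr2, summed to between 785351 and 957777 RP10M, and none was at 0. Myl2 and Ryr2 of these fell in KO, by 0.82 and 1.41 on the log2 scale (adjusted p = 0.00579 and 0.0429 by limma). No lymphocyte or neutrophil marker reached the filter.

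None of the 9 members tested differed between genotypes by limma at an adjusted p under 0.05, where 1.6% of all genes did (1.21% higher and 0.396% lower in KO). At an unadjusted p under 0.05 there were 4, all lower in KO, where the share over all genes was 17.1%. DESeq2 on the recovered reads called 2, Jun and Ier3, both lower in KO, where it called 5.69% of its 8105 genes, and 2.62% as lower. edgeR called 0, where it called 1.16% of all genes and 0.359% as lower. Mean log2 values were lower in KO for 8 of the 9, with Junb the exception, and edgeR, DESeq2 and the fit without WT library 2 put all 9 lower, but without WT library 3 only 5 were lower, and without KO library 1 there were 7. The median log2 change of the 9 was -0.69 by limma, against 0.07 over all genes tested. It was -1.009 by edgeR and -1.005 by DESeq2, against -0.0281 and -0.0218 over all genes. By limma the members' median became -0.35 when WT library 3 was left out and -1.08 when WT library 2 was. P-values here measure only the spread between libraries.

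The AP-1 subunits came first. Fos and Fosb encode partners that bind DNA only as dimers with Jun proteins, whereas Jun can also pair with itself. Fos stood at 3233.5, 832.3 and 4311.2 RP10M in WT libraries 1, 2 and 3 and at 1844.0, 1092.0 and 1054.7 in KO libraries 1, 2 and 3. WT library 2 was thus below all KO libraries and the other two WT libraries above all of them. The ratio of the highest to the lowest library was 5.18 in WT and 1.75 in KO, and the log2 change was -0.82 (95% interval -2.29 to 0.66, adjusted p = 0.560 by limma).

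Fosb had 24.4, 34.4 and 361.8 RP10M across WT libraries, against 37.4, 34.4 and 68.2 across KO libraries. WT library 3 alone stood above the KO libraries, and WT libraries 1 and 2 lay at or below the lowest of them. The reads behind these values were 18, 19 and 346 in WT and 15, 16 and 37 in KO. The log2 change was -0.60 with all libraries and 0.60 without WT library 3, with adjusted p = 0.806 and 0.551 by limma. On the recovered reads of all libraries edgeR and DESeq2 both put it at -1.57, with adjusted p = 0.469 by edgeR, and DESeq2 gave it no p.

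Jun had 4702.4, 2453.6 and 4575.7 RP10M across WT libraries, against 2627.5, 1739.0 and 1305.4 across KO libraries. Here WT libraries 1 and 3 stood together, and the genotypes overlapped only in that WT library 2 was below KO library 1. With TMM scaling the factors of these libraries were 0.928 and 1.031, so this overlap depends on the scaling. The highest library stood 1.92-fold above the lowest in WT and 2.01-fold in KO. The log2 change was -1.05 (95% interval -1.76 to -0.33, adjusted p = 0.137 by limma, 0.104 by edgeR and 0.00679 by DESeq2), and it stayed between -1.35 and -0.81 with any library left out.

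Junb, whose product competes with Jun for partners, had 245.5, 119.4 and 724.6 RP10M across WT libraries, against 391.8, 247.2 and 346.6 across KO libraries. All KO libraries lay above WT libraries 1 and 2 and below WT library 3. Its log2 change of 0.22 (adjusted p = 0.899 by limma) became 0.91 when WT library 3 was left out and -0.39 when WT library 2 was, and edgeR and DESeq2 gave -0.17 and -0.16.

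**Figure D1:**
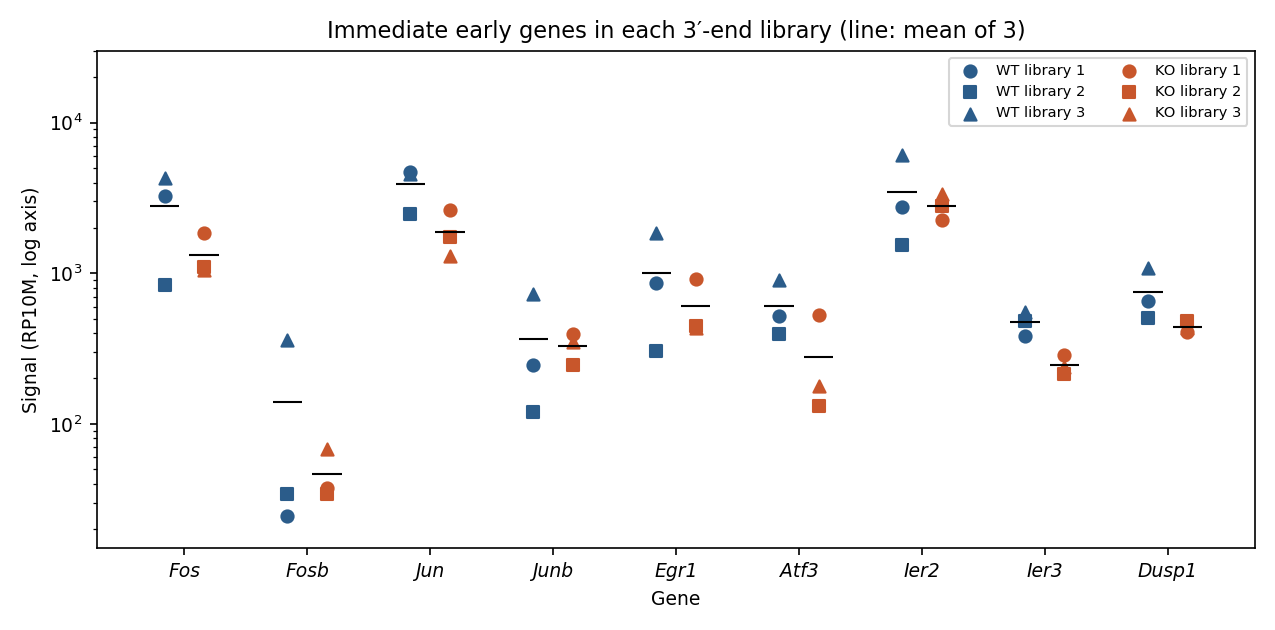
Signal of the 9 members above the filter in each library (RP10M, logarithmic axis), with WT in blue, KO in orange, a marker shape for each library number and a black line for the mean of 3 libraries. WT library 3 (blue triangle) lies above all KO libraries for each of the 9 genes, and the WT points span a wider range than the KO points for 7 of them, with Jun and Atf3 the exceptions.

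The 3 further transcription factors differed in level and in spread. Egr1, a zinc finger factor, had 864.0, 305.8 and 1859.2 RP10M across WT libraries, against 918.3, 449.3 and 435.1 across KO libraries. Every KO library lay between the lowest and the highest WT library. The highest WT library stood 6.08-fold above the lowest, and the log2 change of -0.48 (95% interval -2.06 to 1.10, adjusted p = 0.769 by limma) turned to 0.13 without WT library 3.

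Atf3, a stress-induced member of the ATF/CREB family that mostly represses, had 522.2, 392.6 and 899.3 RP10M across WT libraries, against 524.0, 131.1 and 178.9 across KO libraries. It was the only tested member with the larger log2 SD in KO (1.05 against 0.61 in WT), where KO library 1 stood level with WT library 1. The log2 change of -1.30 (95% interval -2.56 to -0.04, adjusted p = 0.278 by limma) ranged from -1.89 without KO library 1 to -0.89 without KO library 2.

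Myc, a growth-promoting factor, was near the limit of detection. It had 1 read in WT library 1, 3 reads in KO library 1 and none in the other 4 libraries, where 3 reads, the limit that a count of 0 allows, would be worth 3.14 to 6.45 RP10M. No fold is given for it.

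The remaining members, Ier2, Ier3 and Dusp1, held the pair of members whose genotypes did not overlap in RP10M. Ier3, which acts on ERK signalling and cell survival, had 385.2, 479.5 and 553.1 RP10M across WT libraries, against 284.5, 215.0 and 239.7 across KO libraries. This was the tightest member within WT, with log2 SDs of 0.26 in WT and 0.20 in KO, and every WT library lay above every KO library. Its log2 change was -0.93 (95% interval -1.43 to -0.44, adjusted p = 0.0752 by limma, 0.0590 by edgeR and 0.00627 by DESeq2), and it ranged only from -1.07 to -0.81 with any library left out.

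Dusp1, the phosphatase that switches off p38 and JNK kinases, had 657.8, 506.6 and 1080.2 RP10M across WT libraries, against 406.7, 481.5 and 433.3 across KO libraries. The lowest WT library lay just above the highest KO library, and the KO libraries were close together, with a log2 SD of 0.12. The log2 change was -0.69 (95% interval -1.28 to -0.11, adjusted p = 0.209 by limma), and -0.39 without WT library 3. Of all genes tested, 23.3% had no overlap between genotypes, and 9.25% had none with KO lower, against Ier3 and Dusp1, 2 of the 9 members. These shares are for values in RP10M.

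Ier2, which encodes a small nuclear protein, had 2750.7, 1545.2 and 6108.7 RP10M across WT libraries, against 2253.3, 2796.6 and 3368.7 across KO libraries. The KO values lay within the WT range, and the means were closest of all members on the log2 scale (difference -0.10, 95% interval -1.23 to 1.03, adjusted p = 0.947 by limma). Leaving out WT library 3 gave 0.43, KO library 1 gave 0.05 and WT library 2 gave -0.57.

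Set against the difference between genotypes, the spread within WT was the larger quantity for 5 of the 9 members, Fos, Fosb, Junb, Egr1 and Ier2. For these the log2 SD within WT ran from 1.00 for Ier2 to 2.09 for Fosb, while the log2 difference between genotypes ran from 0.10 to 0.82 in size. The share of all tested genes with a within-WT SD above the genotype difference was 54.9%, near that of the members, so this count does not set them apart. The count was 3 without WT library 2 or without WT library 3. For Jun, Atf3, Ier3 and Dusp1 the difference exceeded the WT spread, by 1.98, 2.14, 3.55 and 1.25 times. The SD within KO exceeded the difference for 3 members, Junb, Egr1 and Ier2, where the share over all genes tested was 44.8%. That count does not set the members apart either.

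The size of the WT spread was high for these genes. The median log2 SD within WT was 1.00 over the 9 members and 0.42 over all genes tested, and within KO it was 0.45 against 0.31. Among the 5844 genes that averaged 100 RP10M or more, where counting error is small, the WT SDs of Junb and Egr1 stood at the 98.5th percentile, Fos at the 98.3rd and Ier2 at the 95.9th. Atf3 stood at the 84.8th, Dusp1 at the 80.8th, Jun at the 79.3rd and Ier3 at the 40.9th. Within KO, the SDs of Atf3, Egr1, Jun and Fos stood at the 99.2nd, 95.6th, 91.9th and 88.8th percentiles of the same genes. Those of Junb, Ier2, Ier3 and Dusp1 stood at the 77.4th, 68.5th, 49.0th and 23.7th. The median log2 SD of these 5844 genes was 0.31 in WT and 0.21 in KO. The SD was larger in WT than in KO for 8 of the 9, against 63.3% of all genes. Counting error would give a log2 SD in WT of 0.04 for Fos, 0.12 for Junb, 0.07 for Egr1 and 0.28 for Fosb, below the 1.27, 1.30, 1.31 and 2.09 observed.

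**Figure D2:**
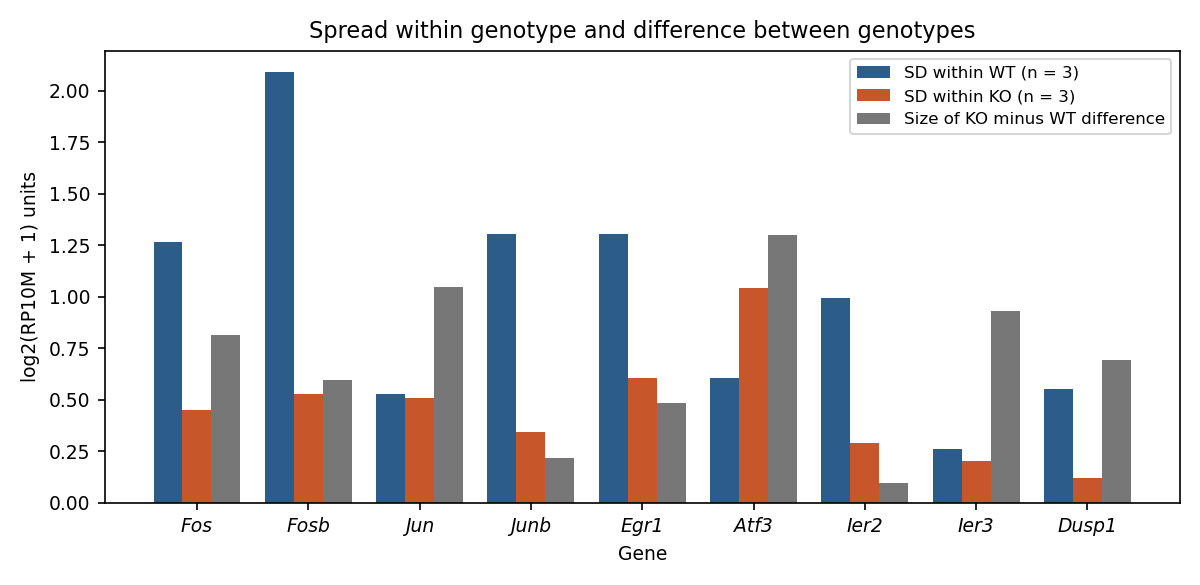
Bars give, for each of the 9 members, the SD of log2(RP10M + 1) over 3 WT libraries (blue), over 3 KO libraries (orange) and the size of the difference between the genotype means (grey). The blue bar is the tallest for Fos, Fosb, Junb, Egr1 and Ier2, and the grey bar for Jun, Atf3, Ier3 and Dusp1.

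The spread had a shared order across libraries. WT library 3 was the highest of the WT libraries for 8 of the 9 members, against 45.2% of all genes, and for Jun it was close behind WT library 1. WT library 2 was the lowest WT library for 7, against 41.6% of all genes, with Fosb and Ier3 the exceptions, for which WT library 1 was lowest. WT library 3 lay above all KO libraries for 9 of the 9 members, against 36.5% of all genes. WT library 2 lay below all KO libraries for 4, Fos, Junb, Egr1 and Ier2, against 41.4%. Against the mean of all 6 libraries, the median over the members was 0.23, -0.66 and 1.27 on the log2 scale in WT libraries 1, 2 and 3 and 0.01, -0.59 and -0.50 in the KO libraries. The same medians over all genes were 0.01, -0.14, 0.10, 0.08, 0.04 and 0.04.

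Within KO the order was looser. KO library 1 was the highest KO library for 6 members, Fos, Jun, Junb, Egr1, Atf3 and Ier3, against 38.9% of all genes. It was the lowest for Ier2 and Dusp1.

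**Figure D3:**
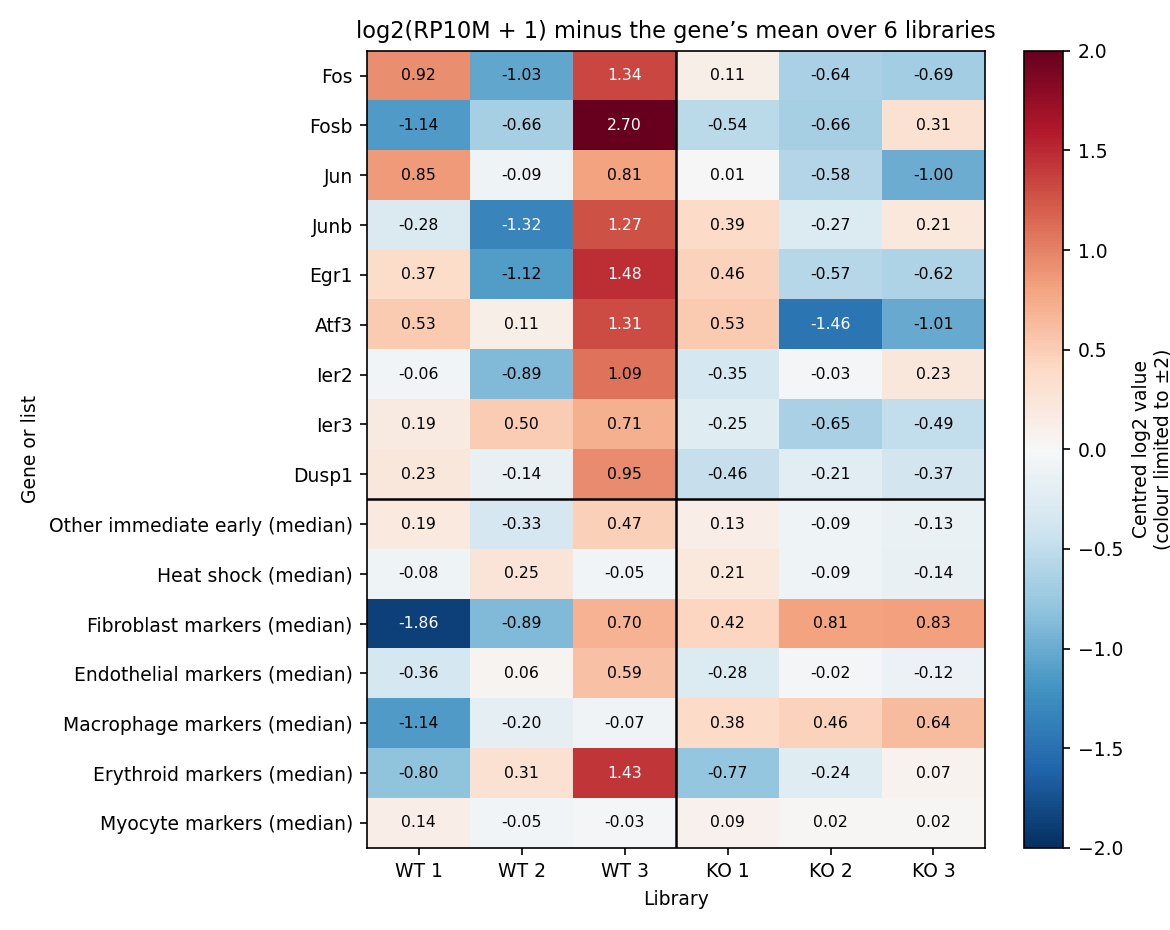
Each cell gives log2(RP10M + 1) of a member, or the median over a gene list, minus its mean over the 6 libraries. Red is above and blue below that mean. The WT 3 column is red for all 9 members, from 0.71 for Ier3 to 2.70 for Fosb. It is also above the mean in the other immediate early, fibroblast, endothelial and erythroid rows (0.47, 0.70, 0.59 and 1.43). In the macrophage and myocyte rows it is just below the mean (-0.07 and -0.03). The heat shock row stays between -0.14 and 0.25 and the fibroblast row is low in WT 1 and WT 2 only.

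Leaving out 1 library moved the genotype difference of the wide-spread members across 0. Without WT library 3, the log2 changes of Fosb, Egr1 and Ier2 became positive and that of Junb became 0.91, whereas Fos stayed at -0.35. Without WT library 2, all 9 were negative, and Fos reached -1.54 (adjusted p = 0.0652 by limma). No member passed by limma with any library left out, and the lowest adjusted p among those fits was 0.0540, for Ier3 without WT library 1.

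**Figure D4:**
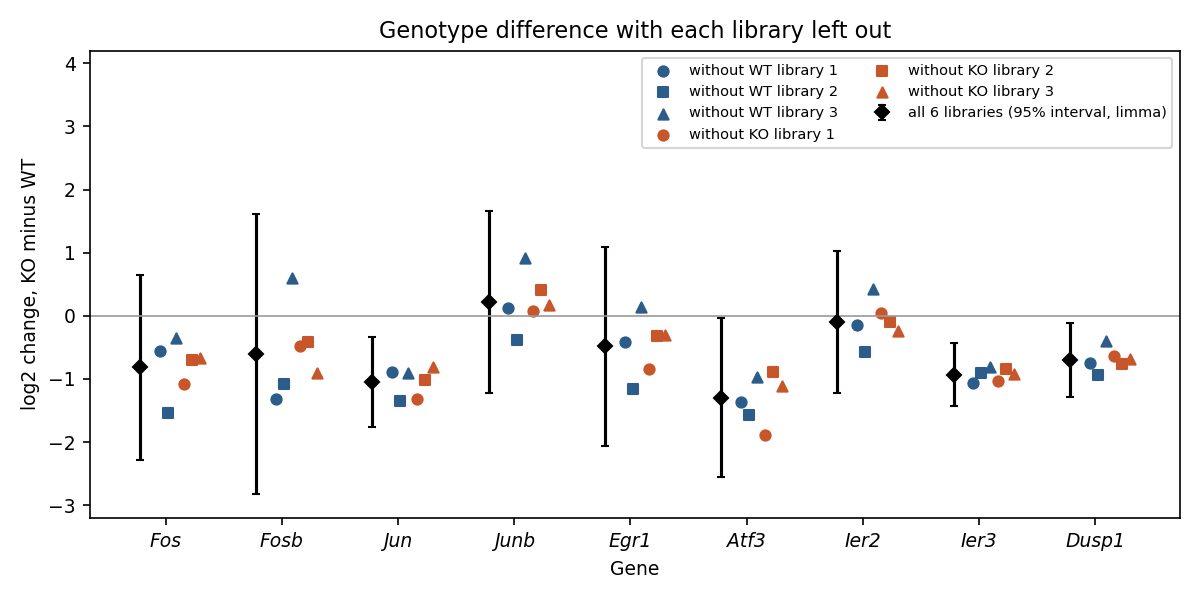
Log2 change (KO minus WT) of each member with all 6 libraries (black diamond, 95% interval from limma) and with each library left out in turn (coloured markers). The fit without WT library 3 (blue triangle) is positive for Fosb, Junb, Egr1 and Ier2, while Fos, Jun, Atf3, Ier3 and Dusp1 stay below 0 in all 6 fits.

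Of 50 further immediate early and primary response genes, 38 passed the filter and none differed by limma at an adjusted p under 0.05 (7 at an unadjusted p under 0.05, where the share over all genes was 17.1%, and 0 by edgeR). DESeq2 called 3, all lower in KO, where it called 2.62% of all genes as lower. They are named here after their values were seen. Klf2, a zinc finger factor known from endothelium, had 1375.3, 2039.2 and 4959.5 RP10M across WT libraries, against 990.6, 1156.5 and 1200.3 across KO libraries. Its lowest WT library lay above its highest KO library. The growth arrest genes Gadd45a and Gadd45g stood at adjusted p = 0.0123 and 0.00173 by DESeq2 and at 0.102 and 0.138 by limma. Of the 38, 21 had a negative log2 change and the median was -0.16. WT library 3 lay above all KO libraries for 21 of them, and the median log2 SD was 0.68 in WT and 0.32 in KO.

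The remaining AP-1 subunits, added after the values were seen, followed the same library in part. Fosl2 had 604.9, 618.8 and 1337.4 RP10M across WT libraries, against 798.5, 657.8 and 676.7 across KO libraries, and Jund, the subunit that is expressed most steadily in resting cells, had 4069.0, 4901.7 and 7491.0 in WT and 6108.5, 6046.8 and 6274.6 in KO. Both were highest in WT library 3 and neither was lowest in WT library 2. Fosl1 had 1.8 RP10M in WT library 2 and was listed at 0 elsewhere. The 2 genes of this list with the widest WT range were Socs3, a feedback inhibitor of cytokine signalling, with 0.0, 1.8 and 43.9 RP10M in WT, and Arc, best known from neurons, with 1.4, 29 and 45.0. Arc had 89.8, 81.7 and 77.4 in KO and, unlike the members, was higher in every KO library (adjusted p = 0.249 by limma).

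Heat shock genes, which dissociation and heat are known to induce, did not as a list share the members' order of WT libraries. Of 13, 1 rose, the small chaperone gene Cryab, from 25622.6, 29654.4 and 25258.6 RP10M in WT to 40134.4, 37871.6 and 44632.2 in KO (log2 change 0.61, adjusted p = 0.0441 by limma). The call did not hold by edgeR, DESeq2 or TMM scaling (adjusted p = 0.171, 0.0873 and 0.136), nor without any one library other than WT library 3. At an unadjusted p under 0.05 by limma there were 5 of the 13, where the share over all genes was 17.1%. Hspa8, Hspb1 and Cryab of these were higher in KO, and Hsp90ab1 and Hspd1 lower. edgeR and DESeq2 called 0. WT library 3 was the highest WT library for 3 of the 13 and WT library 2 the lowest for 1. The median log2 SD of the list within WT was 0.30. Bag3 and Dnajb1 had the widest WT ranges. Bag3 was highest in WT library 1, at 1253.3 RP10M against 731.0 and 429.8, and Dnajb1 lowest there, at 203.5 against 457.8 and 487.3. Within KO, library 1 was the highest for all of the list but Hspa8, Hspe1, Bag3 and Cryab, and it was so for 6 members. Hspa1a had 73.2, 155.6 and 173.6 RP10M across WT libraries, against 466.6, 36.5 and 71.9 across KO libraries. Hspa1b had 6.8, 14.5 and 12.5 against 47.4, 6.4 and 7.4. Whether these genes and the members rose together was not tested.

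Among 17 tested genes of hypoxia, oxidative stress and the integrated stress response, none passed by limma, edgeR or DESeq2. At an unadjusted p under 0.05 by limma there were 3, near the share of 17.1% over all genes. The metallothionein gene Mt2 had the widest WT range, with 9624.6, 826.9 and 599.2 RP10M across WT libraries, against 7383.6, 5920.0 and 5994.3 across KO libraries. The library that stood apart in WT was thus library 1, not library 3. Chac1, a target of the integrated stress response, was also highest in WT library 1, at 282.1 RP10M against 29 and 129.7.

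Of 26 MAP kinase and promoter-bound factors, 1 rose, Map2k2, a kinase that activates ERK. It went from 1805.3, 2104.3 and 1943.9 RP10M in WT to 3059.2, 3181.4 and 3307.9 in KO (log2 change 0.71, adjusted p = 0.0405 by limma and 0.0263 by DESeq2). It did not pass by edgeR (0.101), with TMM scaling (0.0860) or without any one library other than WT library 3. Elk3, an SRF partner, and Rps6ka1, an ERK-activated kinase, had the widest WT ranges in this list, and among the WT libraries both were highest in library 3, at 256.2 and 126.5 RP10M against 42.0 and 28.5 in WT library 1. None of 16 tested genes that bind AU-rich elements or degrade mRNA passed by limma, edgeR or DESeq2. At an unadjusted p under 0.05 by limma there was 1, where the share over all genes was 17.1%. WT library 3 was the highest WT library for 10 of these 16. Pan3 and Xrn1 had the widest WT ranges. Pan3, a subunit of a deadenylase, was highest in WT library 3, at 238.4 RP10M against 55.6 and 30.8 in WT libraries 1 and 2, and Xrn1, an exonuclease, was lowest there, at 7.3 against 58.3 and 27.1.

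Markers of other cell types also differed between WT libraries. The 10 endothelial markers summed to 4945, 5624 and 10264 RP10M in WT libraries 1, 2 and 3 and to between 4472 and 5642 in KO. Of the erythroid markers, Hbb-b1 and Hbb-b2, near-identical globin genes, have the same value in every library and so give 1 signal. It stood at 1535.4, 3311.2 and 7200.3 RP10M in WT libraries 1, 2 and 3 and between 1572.0 and 2799.0 in KO, and Alas2 of heme synthesis at 32.6, 115.8 and 176.7 and between 77.4 and 131.1. Endothelial and erythroid signals were both highest in WT library 3, as the members were, but among WT libraries both were lowest in library 1. The 11 fibroblast markers summed to 898, 2448 and 5949 in WT and to between 4309 and 6990 in KO, and the 12 macrophage markers to 374, 818 and 1044 in WT and to between 1133 and 1575 in KO. The last pair of lists reached its highest sums in KO libraries, unlike the members, and Mfap5 was the 1 marker of these lists that rose in KO (log2 change 2.18, adjusted p = 0.0314 by limma). Smooth muscle and pericyte markers summed to 4304, 3579 and 4356 RP10M across WT libraries and to 3219, 2049 and 2155 across KO libraries. These sums had the members' order, with WT library 3 highest, WT library 2 lowest of WT and KO library 1 highest of KO. WT libraries 1 and 3 were close, however, and the median centred log2 values of these markers were -0.32, -0.06 and 0.70 in WT. Of the 9, 1 fell, Acta2 (log2 change -1.94, adjusted p = 0.0195 by limma). The part of these cell types in the spread of the members was not tested, and in bulk RNA fewer cells of a type and less RNA per cell cannot be told apart.

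Of 9535 candidate genes that averaged 20 RP10M or more, the 5 whose centred log2 values over the 6 libraries lay nearest to the mean of the members were Itpa, Lrp6, Foxj2, Chmp5 and Eif4g3. Their root mean square differences were 0.14 to 0.18 log2 units. Foxj2, for example, had 371.6, 202.7 and 634.7 RP10M across WT libraries, against 257.0, 227.9 and 219.4 across KO libraries. This is a description over 6 libraries, in which many genes share the same order.

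RASL-seq counts ligated probe pairs for a short and a long isoform of each splice event, here in 3 libraries per genotype at 5, 9 and 18 weeks. No event belonged to a member. Of 34 events of the other lists, 24 events of 17 genes passed the filter, and 2, 3 and 6 passed edgeR's quasi-likelihood test at 5, 9 and 18 weeks, where 10.1%, 16.9% and 19.4% of all 2032 events did. The primary response gene Klf6 passed at each age. Its long isoform made up 0.368%, 0.245% and 0.219% of its counts in WT at 5 weeks and 0.681%, 0.827% and 0.612% at 18 weeks, against 0.182%, 0.116% and 0.155% and then 0.148%, 0.172% and 0.168% in KO. It was lower in every KO library than in every WT library of the same age, with adjusted p = 0.0320, 0.00243 and 1.87e-05 at 5, 9 and 18 weeks by edgeR. Both isoforms of Klf6 together had 13965 counts in WT and 9812 in KO at 18 weeks, summed over libraries. At these shares the long isoform rests on very few counts, above all in KO. The 5 week call did not hold without 3 of the 6 libraries or without the filter on low counts (adjusted p = 0.133 by edgeR).

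Upstream of the members, Mapk14, the p38 kinase that Dusp1 acts on, had a long share of 0.157%, 0.159% and 0.146% in WT at 18 weeks and 0.880%, 1.61% and 0.994% in KO (adjusted p = 0.000285 by edgeR, and 0.00307 at 5 weeks). Both isoforms together had 4534 counts in WT and 3578 in KO at 18 weeks, summed over libraries. At 5 weeks they had 4941 and 4572. The long isoform thus rests on very few counts, above all in WT. At 9 weeks, the age of the 3′-end libraries, every KO library again lay above every WT library, but the event did not pass (adjusted p = 0.0901 by edgeR). Map2k4, which activates JNK and p38, passed only at 9 weeks, where its long share went from 60.8% ± 3.34 in WT to 47.7% ± 5.08 in KO (SD, n = 3 each, adjusted p = 0.0322 by edgeR), a call that 4 of the 6 single libraries ended when left out and that did not hold without the filter on low counts (adjusted p = 0.0810). Tial1, which binds AU-rich elements, also passed at 9 weeks (event 7110), with a long share of 2.35%, 0.684% and 0.652% in WT and 2.47%, 4.58% and 4.68% in KO, and again at 18 weeks (adjusted p = 0.00243 and 0.00112 by edgeR). No single library ended either of those calls when left out. The remaining events that passed, all at 18 weeks, were those of Tia1, Vegfa and Atf2 (adjusted p = 0.0267, 0.00716 and 0.0259 by edgeR). The call of Tia1 did not hold without 4 of the single libraries, that of Atf2 without 3, and neither held without the filter on low counts (0.0584 and 0.0799). The events of Mapk8, Mapk9 and Braf that were tested did not pass at any age.

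RASL-seq totals also gave a level for Klf6 and Egr3 in other libraries, as CPM, counts scaled to the library total. At 9 weeks Klf6 stood at 1329, 1490 and 1612 CPM across WT libraries, against 1760, 885 and 694 across KO libraries, where the genotypes overlapped through KO library 1. Egr3, listed at 0 in all 3′-end libraries, stood at 4.18, 35.3 and 32.5 CPM across WT libraries, against 9.22, 11.3 and 50.6 across KO libraries, at 5 weeks. At 9 weeks it stood at 3.73, 16.8 and 4.27 CPM in WT libraries and 21.4, 12.3 and 12.7 in KO libraries, and at 18 weeks at 7.38, 9.13 and 9.74 against 15.98, 14.79 and 28.03. The genotypes overlapped at 5 and 9 weeks, and at 18 weeks every KO library lay above every WT library. These levels were not tested. The labels do not say whether these libraries share RNA with the 3′-end libraries of the same number.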

How the data were processed

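The 3′-end table is a signal per gene that the authors deposited in RP10M, as its header says. Dividing by the value of 1 read gave back whole reads: 99.45% to 99.99% of values above 0 were whole multiples of 1 read within a tolerance of 0.1. The RASL-seq table holds deposited raw counts per isoform. Bowtie 0.12.7, cutadapt 1.2.1 and the mm9 build appear, with no role, in the submitters' processing notes. How reads were counted is not given in the sources used here. GEO has 1 sample for each genotype and age, but each has 3 numbered columns of values. Their counts differed by a chi-square per degree of freedom of 6.79 to 64.6, so they were taken as separate libraries, whose p-values measure a spread that may be technical. WT library 2 adds up to 9529443.7, short of 10000000.

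The main test was limma 3.58.1 (trend, robust, R 4.3.3) on log2(RP10M + 1) of genes averaging 10 RP10M or more, with Benjamini-Hochberg adjustment over all of them. Fold changes on this scale are smaller than true ones for low genes. edgeR 4.0.16 and DESeq2 1.42.0 ran on the recovered reads. RASL-seq isoform counts were tested with edgeR as pairs, each library having its own term, for events averaging 20 counts or more in all and 1 or more per isoform. Intervals and limits from counts cover counting error only. The scripts were tested on simulated data.

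Members, lists and markers were chosen with earlier results of these data known. Genes named beside the members were those of each list that passed (at most 5), the 2 with the widest WT range, Rbfox2, and the 5 nearest profiles. The other AP-1 subunits, Hspa1a and Hspa1b, the genes DESeq2 alone called and the RASL-seq events were chosen after their values were seen.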

Additional observations from a re-analysis of the deposited data

Results flagged for a closer look

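An event of Atf2 (7431), which encodes a partner of Jun, moved in opposite directions at different ages in RASL-seq. Its long isoform had a share of 6.94%, 9.38% and 7.75% in WT at 9 weeks, against 5.03%, 6.79% and 6.05% in KO, so that every KO library lay below every WT library. At 18 weeks the shares were 4.81%, 5.0% and 4.0% in WT and 7.59%, 7.72% and 10.4% in KO, a difference of 3.97 percentage points, with every KO library above every WT library. By edgeR the event passed at 18 weeks (adjusted p = 0.0259) and did not at 9 weeks (adjusted p = 0.299) or 5 weeks (0.968), and the 18 week call did not hold without 3 of the 6 libraries or without the filter on low counts (0.0799). The difference between ages was not tested.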

How the results depend on the processing

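The count of genes that differed in the 3′-end data was 174 with limma and 461 with DESeq2, and it ran from 18 (KO library 2 or KO library 3 left out) to 409 (WT library 3 left out). With the replicate number as a block it was 338, and no member passed under that block. The labels do not say that the numbers pair the libraries, and the main fit did not pair them. Deviations from the genotype mean had a positive r between same-numbered libraries, at 0.279, 0.0593 and 0.193. Such deviations cancel within a genotype, so the values of r for different pairs depend on one another. Of the differently numbered pairs only KO library 2 with WT library 3 had a positive r (0.123), above that of KO library 2 with WT library 2. The others ran from -0.243 to -0.0044. Whether libraries of a number shared a batch was not tested. The count of members that passed was 0 by limma in all settings run, 0 by edgeR and 2 by DESeq2. The count of members whose WT spread exceeded the difference ran from 3 to 6 with 1 library left out and was 5 with TMM scaling and with pseudocounts of 0.1 and 5. The median log2 change of the members ran from -1.08 to -0.35 with 1 library left out. Of 125 refits of single members, 116 kept their direction and did not cross the threshold. These include Fosb by DESeq2, which had no p and was compared by direction only. Jun and Ier3 moved past the threshold by DESeq2. Junb turned to -0.17 by edgeR and -0.16 by DESeq2. With 1 library left out Junb ran from -0.39 to 0.91, Fosb from -1.32 to 0.60, Egr1 from -1.17 to 0.13 and Ier2 from -0.57 to 0.43. The cause was not tested. In RASL-seq at 5 weeks, 1 event of the lists in place of 2 passed without the filter on low counts and with the replicate block, and 1 to 2 with a library left out. The call lost in both was that of Klf6 (adjusted p = 0.133 and, with the block, 0.0633 by edgeR). Without that filter the count also went from 3 to 2 at 9 weeks, where Map2k4 was lost, and from 6 to 4 at 18 weeks, where Tia1 and Atf2 were lost. Fosb, with 15 to 37 reads in 5 of the 6 libraries, and Myc are limited by depth.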
